A study of Mus musculus with 2 samples.

Results

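Expression of 9 genes of the Nrf2 antioxidant response was followed in myeloid cells of injured mouse muscle, in a wild-type library and in a library from mice with a deletion of *Gata3*. The genes were taken as a named list: *Nfe2l2*, which encodes Nrf2 itself, *Bach1*, and the targets *Gclm*, *Gclc*, *Slc7a11*, *Txnrd1*, *Srxn1*, *Prdx1* and *Nqo1*. All 9 were among the 13289 genes listed in both count tables. The question put to them was whether their levels differ between the genotypes in each myeloid state, and whether they follow *Hmox1*, the haem oxygenase gene, from cell to cell.

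Tibialis anterior muscle was injured with 50 µl of 10 µM cardiotoxin, a toxin of the cobra Naja pallida, and taken at day 4. Cells negative for the viability dye Zombie aqua and for the neutrophil marker Ly6G, and positive for CD45 and CD11b, were sorted, and 8000 cells per library were loaded for droplet sequencing of 3' transcript ends. The Wt library came from C57BL/6 mice and, by its label, carries neither a Cre transgene nor a floxed allele. The Gata3KO library came from C57BL/6 mice with Cx3cr1-driven Cre and a floxed *Gata3* gene (Cx3cr1CRExGata3fl/fl), in which Cre can act in every cell that has used the *Cx3cr1* promoter. There was 1 library per genotype, and the number of mice behind each is not given in the sources used here. No test between genotypes was therefore possible, and every interval below is a 95% interval for counting error only. Differences between animals, preparations and genotypes cannot be told apart.

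After filtering, 990 Wt cells and 650 Gata3KO cells remained of 3290 and 3434 barcodes, with medians of 5836 and 13716 UMIs (unique molecular identifiers, each a counted transcript). No barcode was shared between the kept cells of the libraries. *Gata3* had 4 UMIs in the kept Wt cells and 1 in the kept Gata3KO cells, too few to check the deletion. Monocytes and macrophages, as the union of clusters 1, 2 and 3, held 416 Wt cells (4424700 UMIs) and 402 Gata3KO cells (6886205 UMIs), and all 8 general markers of these cells were detected in both. *Fabp5* and *Gpnmb* headed cluster 1 (114 Wt and 197 Gata3KO cells), which was lipid-handling macrophage-like. Interferon response genes headed cluster 2 (242 and 38 cells), with *Iigp1*, *Gbp2* and *Ifit2* among them, and inflammatory genes headed cluster 3 (60 and 167 cells), with *Cxcl2*, *Gdf15*, *Ier3* and *Tnf*. The 9 genes, *Hmox1* and the other pathway genes were left out of the genes that formed the clusters.

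Nrf2 is a transcription factor that is made continuously and destroyed through its adaptor Keap1 until oxidants or electrophiles modify Keap1. Stabilised Nrf2 pairs with small Maf proteins on antioxidant response elements and raises genes for glutathione synthesis, thioredoxin and peroxiredoxin turnover and quinone reduction. Bach1 competes for the same elements as a repressor and leaves them when it binds haem, which macrophages take up when they clear red cells and damaged muscle. *Hmox1*, whose product opens the haem ring, is a target of both factors.

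The promoters are shown first, because they differ in whether the short core of the antioxidant response element lies close to the start site. RefSeq promoter windows on GRCm38.p6 (250 bases before to 50 bases after each start) were matched for 8 of the 9 genes. The core TGACNNNGC, searched on both strands, was present in 12.4% of all 32851 promoters, and before the start in 10.2%. It lay before the start in 4 of the 8 genes, *Gclm*, *Txnrd1*, *Prdx1* and *Nfe2l2*. The stretches around it are given for the 3 target genes, 5′ to 3′ on the plus strand, which is the strand of each gene, with the reverse complement of the core in capitals.
Gclm, chr3:122245398-122245456: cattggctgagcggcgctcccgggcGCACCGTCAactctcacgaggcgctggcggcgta
Txnrd1, chr10:82859089-82859147: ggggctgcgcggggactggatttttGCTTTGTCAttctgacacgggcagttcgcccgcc
Prdx1, chr4:116685441-116685499: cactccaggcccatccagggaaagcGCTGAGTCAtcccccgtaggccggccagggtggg
The core began 134 bases before the start of *Gclm*, 92 bases before the second of 3 listed *Txnrd1* starts and 133 bases before the start of *Prdx1*. The *Prdx1* match overlapped TGACTCA, the AP-1 motif, which was present in 5.2% of all promoters. *Srxn1* had a core only after its start, at base 28, and 2 AP-1 motifs before it. The windows of *Nqo1*, *Slc7a11* and *Bach1*, and the other 2 of *Txnrd1*, held neither sequence. A match describes these letters in these windows and is not evidence of binding.

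Among the regulators, *Nfe2l2* stood higher in Gata3KO monocytes and macrophages and *Bach1* only slightly so. *Nfe2l2* (ENSMUSG00000015839, chromosome 2 at 75675513 to 75704641, minus strand, mm10) was at 181 CPM in Wt, in UMIs scaled to a common class total (CPM), and at 275 CPM in Gata3KO. The log2 ratio Gata3KO over Wt was 0.61 (interval 0.49 to 0.73). *Bach1* (ENSMUSG00000025612, chromosome 16 at 87698945 to 87733346, plus strand) was at 133 and 155 CPM, a log2 ratio of 0.22 (0.07 to 0.37). In each library the *Nfe2l2* level was highest in cluster 3, at 322 CPM in Wt and 388 CPM in Gata3KO. *Bach1* was spread more evenly, between 114 and 166 CPM over the 3 Wt clusters and between 131 and 183 CPM over the 3 Gata3KO clusters.

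Of the measured targets, *Gclm*, a gene of glutathione synthesis, differed most between the libraries. *Gclm* (ENSMUSG00000028124, chromosome 3 at 122245557 to 122270732, plus strand) encodes the modifier subunit of glutamate-cysteine ligase, the enzyme that commits cysteine to glutathione. It stood at 33.2 CPM in Wt, from 147 UMIs, and at 122 CPM in Gata3KO, from 838 UMIs. That is 3.66-fold higher, a log2 ratio of 1.87 (1.62 to 2.14), above 99.9% of the 5887 genes measured at 20 CPM or more in at least 1 library. *Gclc* (ENSMUSG00000032350, chromosome 9 at 77754535 to 77794485, plus strand), the catalytic subunit of the same enzyme, was at 14.5 CPM in Wt and 23.1 CPM in Gata3KO, a log2 ratio of 0.67 (0.25 to 1.12). The 2 subunits thus differed between the libraries by unequal amounts, with intervals that do not overlap. *Slc7a11* (ENSMUSG00000027737, chromosome 3 at 49892526 to 50443614, minus strand), the cystine-glutamate exchanger that brings in cystine, was at 20.6 and 30.9 CPM, a log2 ratio of 0.59 (0.23 to 0.96).

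The genes of the thioredoxin arm did not differ in 1 direction. *Txnrd1* (ENSMUSG00000020250, chromosome 10 at 82833951 to 82897712, plus strand), the cytosolic thioredoxin reductase, was at 60.3 CPM in Wt and 81.5 CPM in Gata3KO, a log2 ratio of 0.43 (0.22 to 0.65). This interval overlapped those of *Gclc* and *Slc7a11*. *Srxn1* (ENSMUSG00000032802, chromosome 2 at 152105516 to 152111376, plus strand), the sulfiredoxin that repairs over-oxidised peroxiredoxins, was at 30.1 CPM in Wt and 22.5 CPM in Gata3KO, a log2 ratio of -0.42 (-0.76 to -0.07). *Prdx1* (ENSMUSG00000028691, chromosome 4 at 116685544 to 116700822, plus strand), an abundant peroxiredoxin, was at 1326 and 1347 CPM, a log2 ratio of 0.02 (-0.02 to 0.07). The class level of *Prdx1* was therefore the same in both libraries within counting error.

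*Nqo1* (ENSMUSG00000003849, chromosome 8 at 107388225 to 107403206, minus strand), the quinone reductase often used to read out Nrf2 activity, was close to undetected. It had 6 UMIs in Wt and 3 in Gata3KO over the whole class, 1.36 and 0.44 CPM, and the interval of its log2 ratio, -4.27 to 0.59, allows no direction. Measurement at 20 CPM or more was reached by the other 8 genes.

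By counts, 4 of the 9 genes (*Gclm*, *Gclc*, *Slc7a11* and *Nfe2l2*) were over 1.5-fold higher in the Gata3KO class, where 5.28% of measured genes were, and 1 (*Nqo1*, on 9 UMIs in all) was over 1.5-fold lower, where 8% of measured genes were. The median log2 ratio of the 9 was 0.43, against 0.05 over all measured genes. *Slc7a11* at 1.504-fold and *Nfe2l2* at 1.52-fold lay at the edge of that limit. *Hmox1* (ENSMUSG00000005413, chromosome 8 at 75093621 to 75100589, plus strand) was at 122 CPM in Wt and 684 CPM in Gata3KO, a log2 ratio of 2.49 (2.36 to 2.62).

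Cluster makeup moved with these class values. Cluster 2 gave 46.2% of the class UMIs in Wt and 4.97% in Gata3KO, and cluster 3 gave 19.0% and 42.4%. When each cluster counted alike (the mean of the 3 log2 ratios, with 1 CPM added), *Gclm* kept a log2 ratio of 1.01, while *Txnrd1* stood at -0.45, *Prdx1* at -0.44, *Srxn1* at -1.001 and *Slc7a11* at -1.09, and 1 of the 9 genes was over 1.5-fold higher. The 38 Gata3KO cells of cluster 2 held 5 *Txnrd1* UMIs, 2 *Srxn1* UMIs and no *Slc7a11* UMI. In clusters 1 and 3 the log2 ratios were -0.01 and -0.08 for *Txnrd1* and 0.09 and -0.30 for *Slc7a11*. They were -0.28 and -0.27 for *Prdx1* and -0.35 and -1.29 for *Srxn1*. Over the whole class the 8 skeletal muscle markers summed to 181 CPM in Wt and 58.5 CPM in Gata3KO, and the 11 early-response genes often raised by tissue dissociation to 2507 and 3847 CPM. Their part in the class values was not tested.

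**Figure D1:**
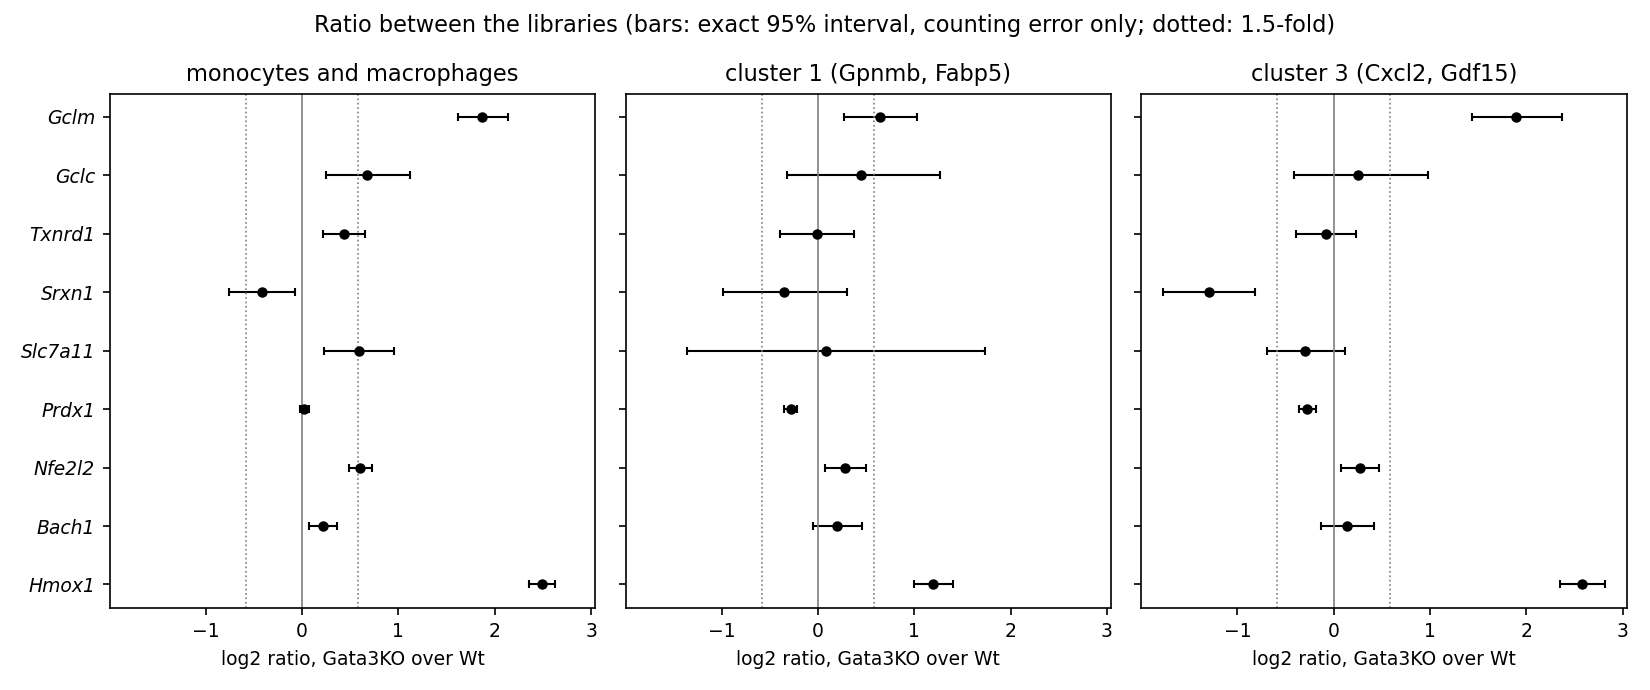
Log2 ratio Gata3KO over Wt of 8 of the genes and *Hmox1* in the whole class, in cluster 1 and in cluster 3, with exact 95% intervals for counting error as bars, and with dotted lines at 1.5-fold. *Gclm* lies past the dotted line in all 3 panels (1.87, 0.64 and 1.89), while *Srxn1* lies below 0 in all 3 (-0.42, -0.35 and -1.29), in cluster 1 with an interval that spans 0.

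Within cluster 3, the inflammatory state, *Gclm* was again higher in Gata3KO while *Srxn1* was lower. *Gclm* stood at 51.1 CPM in Wt and 189 CPM in Gata3KO, a log2 ratio of 1.89 (1.44 to 2.37), and *Srxn1* at 77.2 and 31.5 CPM, a log2 ratio of -1.29 (-1.77 to -0.81). Of the 9 genes, 1 was over 1.5-fold higher (12.7% of measured genes were) and 2, *Srxn1* and *Nqo1* (2 UMIs in each library), were over 1.5-fold lower (10.8% were). *Prdx1* was at 1714 and 1418 CPM (log2 ratio -0.27, -0.36 to -0.19) and *Nfe2l2* at 322 and 388 CPM (0.27, 0.08 to 0.47). The intervals of *Gclc*, *Txnrd1*, *Slc7a11* and *Bach1* spanned 0, with log2 ratios between -0.30 and 0.25. *Hmox1* was at 194 and 1157 CPM, a log2 ratio of 2.58 (2.35 to 2.82).

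Other markers moved inside cluster 3 as well. The 10 interferon-response markers summed to 4626 CPM in Wt and 513 CPM in Gata3KO, and the 10 monocyte markers to 4497 and 1256 CPM. The mature dendritic cell markers (6 of the 7 listed in both tables detected in each library, *Cacnb3* at 0 in Wt and *Ccr7* at 0 in Gata3KO) summed to 167 and 4.45 CPM, while the early-response genes summed to 7890 and 7185 CPM. In cluster 1 the early-response genes summed to 952 CPM in Wt and 1286 CPM in Gata3KO, and in cluster 2 to 1459 and 2441 CPM. They were thus highest in cluster 3 among the clusters of the class. The part of these genes and markers in the values of the 9 genes, within or between clusters, was not tested.

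*Slc7a11* was concentrated in cluster 3 of both libraries. This cluster gave 76.9% of the class *Slc7a11* UMIs in Wt and 92.96% in Gata3KO. Its *Slc7a11* level was 83.1 CPM in Wt (64.8 to 105) and 67.7 CPM in Gata3KO (58.6 to 77.9), so the libraries overlapped there. In cluster 1 it was 3.90 and 4.14 CPM, and in cluster 2 it was 7.33 CPM in Wt with no UMI in the 38 Gata3KO cells, where 3 UMIs would be 8.77 CPM.

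In cluster 1, the lipid-handling state, the 2 libraries were close for most of the genes. *Gclm* stood at 49.5 CPM in Wt and 77.0 CPM in Gata3KO, a log2 ratio of 0.64 (0.27 to 1.03). It was the 1 of 9 over 1.5-fold higher (3.85% of measured genes were), and *Nqo1*, on 3 UMIs in all, was the 1 over 1.5-fold lower (5.72% were). This *Gclm* value rested on a few cells: when the 9 genes and their pathway were allowed into the clustering, 300 of the 311 cells stayed in the cluster and the log2 ratio was 0.11. That of *Hmox1* went from 1.198 to 0.146. *Prdx1* was at 1661 and 1366 CPM (-0.28, -0.35 to -0.21), *Nfe2l2* at 159 and 194 CPM (0.28, 0.07 to 0.50), and the intervals of *Gclc*, *Txnrd1*, *Srxn1*, *Slc7a11* and *Bach1* spanned 0.

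Cluster 2, the interferon state, held 38 Gata3KO cells and few UMIs of most genes. None of the 9 genes was over 1.5-fold higher in Gata3KO (13.3% of measured genes were), and *Prdx1*, *Txnrd1*, *Srxn1*, *Nqo1* and *Slc7a11* were over 1.5-fold lower (14.6% were). *Prdx1* stood at 914 CPM in Wt and 535 CPM in Gata3KO, a log2 ratio of -0.77 (-0.999 to -0.552). *Txnrd1* was at 36.2 and 14.6 CPM on 74 and 5 UMIs (-1.31, -2.97 to -0.02). The remaining 3 rested on 2 or fewer Gata3KO UMIs each. Of the 5 genes measured at 20 CPM in this cluster, 2 were over 1.5-fold lower. Markers moved inside this cluster too: the lipid-handling macrophage markers summed to 6818 CPM in Wt and 3655 CPM in Gata3KO, the monocyte markers to 2634 and 5391 CPM, and the interferon-response markers to 5347 and 2324 CPM. Their part in these values was not tested.

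**Figure D2:**
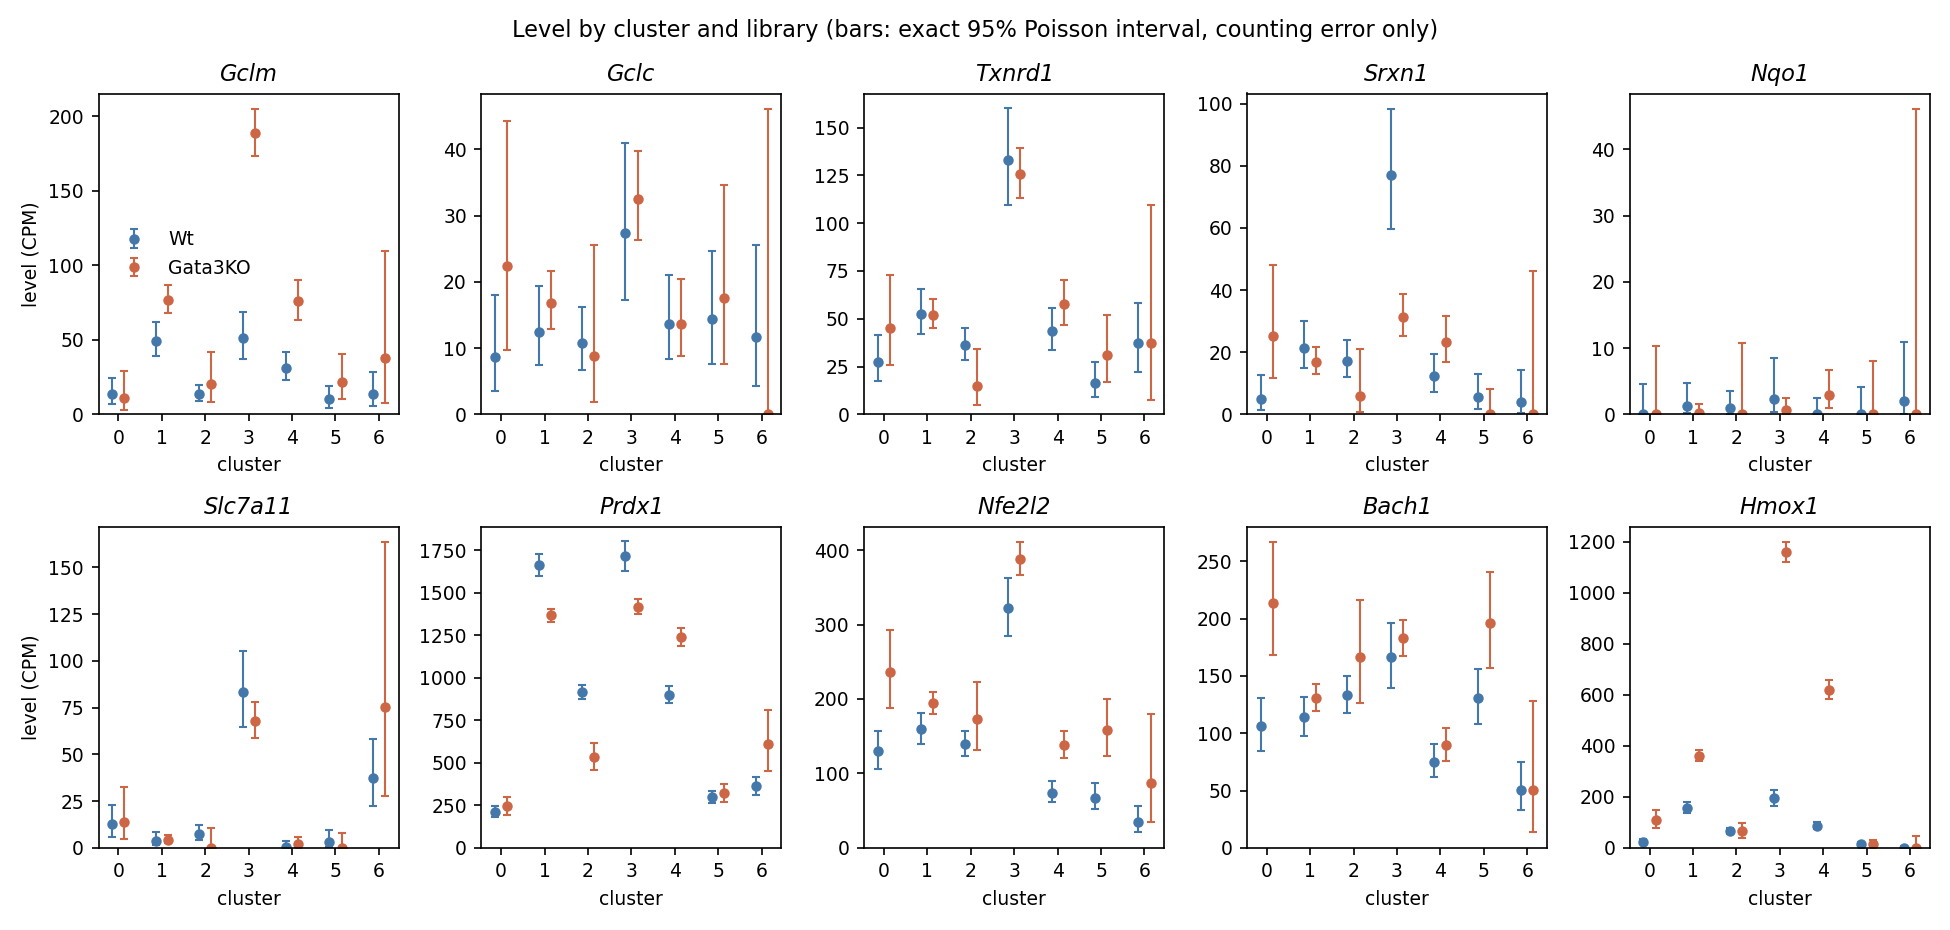
Level of each gene and of *Hmox1* in CPM (vertical axis, starting at 0 and scaled per gene) in clusters 0 to 6, Wt in blue and Gata3KO in red, with exact 95% Poisson intervals. *Nfe2l2* and *Txnrd1* peak in cluster 3 of both libraries, as *Slc7a11* does in Wt (its 75.1 CPM in cluster 6 of Gata3KO rests on 6 UMIs), and *Gclm* reaches 189 CPM in cluster 3 of Gata3KO.

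Across cell states, *Gclm* and *Txnrd1* had their highest level in cluster 3 of both libraries, in Wt level with cluster 1 for *Gclm*. In Wt, *Gclm* was highest in clusters 3 and 1 (51.1 and 49.5 CPM, not different within counting error), followed by cluster 4 at 31.4 CPM, a cluster of cycling cells mixed with *Sparc*-positive cells, and then by clusters 0, 2, 6 and 5 between 9.96 and 13.7 CPM. In Gata3KO it was highest in cluster 3 at 189 CPM, followed by clusters 1 and 4 at 77.0 and 76.0 CPM, and clusters 0, 2, 5 and 6 lay between 11.2 and 37.5 CPM, on 10 or fewer UMIs each. *Txnrd1* in cluster 3 was at 133 CPM in Wt and 126 CPM in Gata3KO, and in neither library did clusters 1 and 4 differ beyond counting error.

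*Prdx1* was higher in macrophage clusters 1 and 3 than in both dendritic clusters. It stood at 1661 and 1714 CPM in Wt clusters 1 and 3 but at 299 CPM in cluster 5, conventional dendritic cell 2-like by *Cd209a*, and at 362 CPM in cluster 6, mature dendritic cell-like by *Ccr7* and *Fscn1*. In Gata3KO these levels were 1366, 1418, 321 and 613 CPM, the last on 10 cells (453 to 810), and macrophage cluster 2, at 535 CPM (460.3 to 618), overlapped it. *Nfe2l2* in cluster 5 was at 67.5 CPM in Wt (106 cells) and 158 CPM in Gata3KO (44 cells), a log2 ratio of 1.23. *Hmox1* had 12 and 7 UMIs in cluster 5 and none in cluster 6 of either library, with upper bounds of 7.22 and 46.1 CPM.

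Outside the class the same genes leaned higher in Gata3KO, in cells of mixed or uncertain identity. In cluster 4 (67 Wt and 89 Gata3KO cells), 5 of the 9 were over 1.5-fold higher (10.9% of measured genes were) and none lower (13.7% were), among them *Gclm* at 31.4 and 76.0 CPM, *Nfe2l2* at 74.3 and 138 CPM and *Srxn1* at 12.3 and 23.4 CPM. The other 2, *Nqo1* and *Slc7a11*, rested on 5 and 4 Gata3KO UMIs. Of the 6 genes measured at 20 CPM there, 3 were over 1.5-fold higher. The general macrophage markers of that cluster also differed, at 6630 CPM in Wt and 14716 CPM in Gata3KO, so its makeup was not alike in the libraries. Cluster 0, of cells with a median of 2218 UMIs and no assigned identity, had *Nfe2l2* at 130 and 236 CPM and *Bach1* at 106 and 214 CPM. There 5 of the 9 were over 1.5-fold higher (18.6% of measured genes were) and none lower (16.7% were), but all 9 *Srxn1* UMIs of its Gata3KO cells came from 1 cell. The cluster 0 intervals of *Gclc* (7 and 8 UMIs) and *Txnrd1* (22 and 16 UMIs) spanned 0. In cluster 5, *Gclm*, *Txnrd1* and *Nfe2l2* were over 1.5-fold higher (10.2% were), and *Srxn1* and *Slc7a11*, with 5 and 3 UMIs in Wt and none in Gata3KO, lower (17.4% were). Of the 5 genes measured at 20 CPM in cluster 5, 3 were higher and none was lower. The cluster 5 intervals of *Gclm* (9 and 10 UMIs) and *Txnrd1* (15 and 14 UMIs) spanned 0.

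Over all kept cells together, *Gclm* (log2 ratio 1.92), *Nfe2l2* (0.82), *Slc7a11* (0.65), *Txnrd1* (0.61) and *Gclc* (0.60) were over 1.5-fold higher, 5 of the 9 where 6.75% of measured genes were, and none was lower, where 9.65% were. The same 5 genes passed the limit over every deposited barcode (5.62% of measured genes were higher, 7.23% lower), with *Gclm* at 23.3 CPM in Wt and 67.3 CPM in Gata3KO. In the barcodes left out for over 10% mitochondrial UMIs, 2300 in Wt and 2784 in Gata3KO, *Bach1* joined them, giving 6 of 9 higher (6.94% were) and none lower (8.86% were).

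Within each library, the cells richest in *Hmox1* were also rich in the target genes. Cells were ordered by the share of *Hmox1* in their UMIs, and the top 10% were set against the rest, a division chosen after values had been seen. These were 42 Wt cells (13, 9 and 20 in clusters 1, 2 and 3) and 40 Gata3KO cells (7, 0 and 33), holding 12.2% and 10.7% of the class UMIs. Their median UMI counts were 11359 in Wt and 18477 in Gata3KO, against 8672 and 17167.5 over the class.

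*Gclm* showed the tightest overlap with *Hmox1* of the 8 genes measured at 20 CPM. The top 10% held 53.1% of all *Gclm* UMIs of the Wt class (44.7 to 61.3%) and 64.6% of those of the Gata3KO class (61.2 to 67.8%). As levels, *Gclm* was at 145 CPM in these cells and 17.8 CPM in the others in Wt, a log2 ratio of 3.03, and at 737 and 48.3 CPM in Gata3KO, a log2 ratio of 3.93. By this ratio it ranked 11 of 6031 measured genes in Wt and 3 of 5907 in Gata3KO. The *Gclm* level of the remaining cells was also higher in Gata3KO than in Wt. Those cells were not alike in *Hmox1*, at 40.4 CPM in Wt and 112 CPM in Gata3KO. The lowest *Hmox1* level inside the top 10% was 182 CPM in Wt and 616 CPM in Gata3KO.

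**Figure D3:**
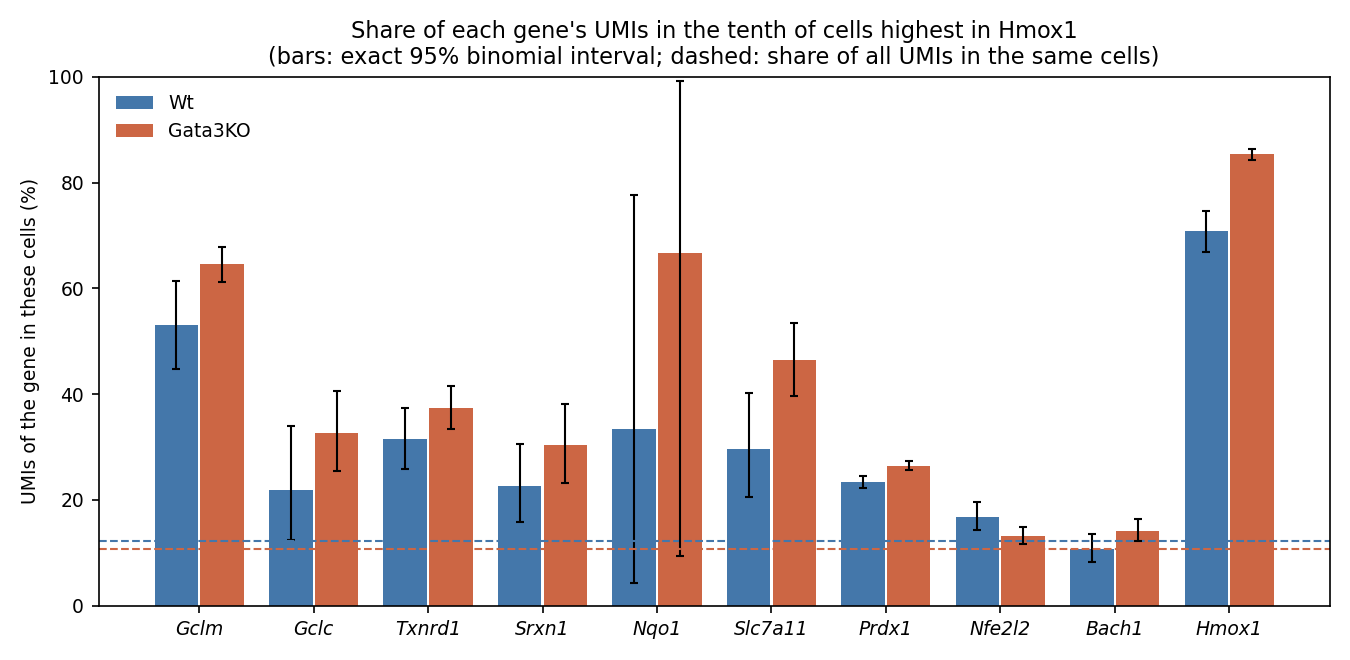
Share of each gene's UMIs (percent, bars starting at 0) found in the 10% of monocytes and macrophages richest in *Hmox1*, Wt in blue and Gata3KO in red, with exact 95% binomial intervals; dashed lines give the share of all UMIs in the same cells. *Gclm* stands at 53.1% and 64.6%, while *Bach1* (10.7% and 14.2%) and *Nfe2l2* (16.9% and 13.2%) lie closer to the dashed lines at 12.2% and 10.7% than the other genes.

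The other targets followed to a smaller degree. The same cells held 29.7% of the *Slc7a11* UMIs in Wt and 46.5% in Gata3KO, 31.5% and 37.4% of those of *Txnrd1*, and 21.9% and 32.7% of those of *Gclc*. For *Srxn1* these shares were 22.6% and 30.3%, and for *Prdx1* 23.4% and 26.5%. In each library 7 of the 9 genes were over 1.5-fold higher in the *Hmox1*-rich cells, where 13% of measured genes were in Wt and 7.96% in Gata3KO; *Nqo1* counts among the 7 on 2 UMIs per library in these cells. *Nfe2l2* and *Bach1*, the regulators, were the 2 that were not, but 3 of their 4 intervals lay above 0. *Nfe2l2* had a log2 ratio of 0.55 in Wt (0.27 to 0.82) and 0.35 in Gata3KO (0.15 to 0.54), and *Bach1* -0.20 in Wt (-0.60 to 0.18) and 0.47 in Gata3KO (0.21 to 0.72). Setting *Nqo1* aside, the log2 ratios of the targets were 1.02 or more in Wt and 1.59 or more in Gata3KO. In Wt the interval of *Gclc* (0.05 to 1.89) overlapped that of *Nfe2l2*. Over 5 alternatives (other cell fractions, single clusters, a looser mitochondrial limit), *Nfe2l2* ranged from 0.31 to 0.82 in Wt and from -0.25 to 0.14 in Gata3KO. *Bach1* ranged from -0.38 to 0.49 in Wt and from -0.03 to 0.45 in Gata3KO.

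This held inside the inflammatory cluster for *Gclm*. In cluster 3 of Gata3KO, the 17 cells richest in *Hmox1* held 63.9% of its *Gclm* UMIs, 35.4% of its *Slc7a11* UMIs and 32.1% of its *Prdx1* UMIs. In cluster 3 of Wt, where the top 10% were 6 cells, they held 44.2% of the *Gclm* UMIs, but *Gclc* and *Srxn1* showed no excess, with log2 ratios of -0.04 and -0.24. The intervals of *Txnrd1* (0.54, -0.38 to 1.36) and *Slc7a11* (0.76, -0.37 to 1.74) also spanned 0 there, while that of *Prdx1* did not (1.29, 1.09 to 1.48). Inside cluster 1, 60.5% of *Gclm* UMIs in Wt and 54.1% in Gata3KO lay in 11 and 20 cells. The cluster 1 intervals of *Gclc*, *Txnrd1*, *Srxn1* and *Prdx1* lay above 0 in both libraries. Those of *Slc7a11*, on 1 and 3 UMIs in these cells, spanned 0.

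**Figure D4:**
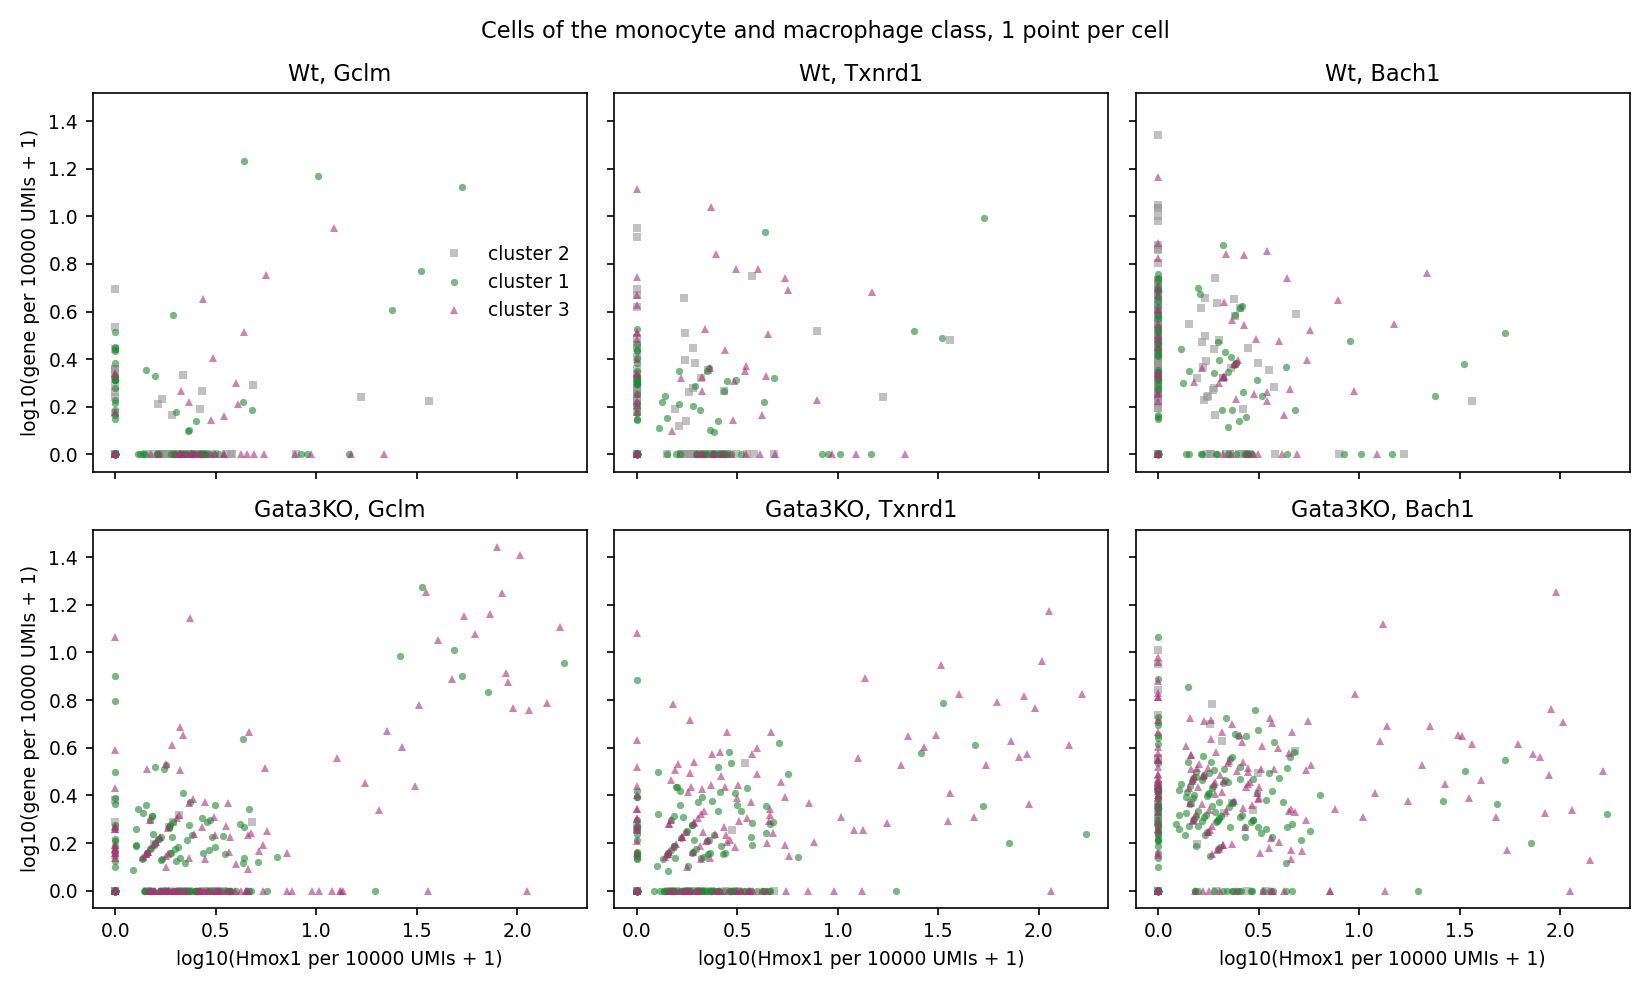
Each point is 1 cell of the monocyte and macrophage class, with *Hmox1* on the horizontal axis and *Gclm*, *Txnrd1* or *Bach1* on the vertical axis, both as log10 of UMIs per 10000 plus 1; colours and symbols mark clusters 1, 2 and 3. In Gata3KO most cells far to the right carry *Gclm* and many belong to cluster 3, whereas *Bach1* is also present in many cells at 0 on the horizontal axis.

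With every cell thinned to 2000 UMIs, 393 Wt and 377 Gata3KO cells remained and were grouped by their *Hmox1* UMIs. In Gata3KO, *Gclm* was at 39.3 CPM in the 280 cells with 0, at 82.1 CPM in the 67 cells with 1 to 2 and at 850 CPM in the 30 cells with 3 or more. The last group held 24 cells of cluster 3, and 6 of the 9 genes were over 1.5-fold higher in it than in cells with 0 (24% of measured genes were): *Gclm*, *Gclc*, *Txnrd1*, *Slc7a11*, *Prdx1* and the regulator *Bach1* (177 and 350 CPM, log2 ratio 0.99, 0.23 to 1.68). Between the end groups *Txnrd1* went from 48.2 to 267 CPM and *Prdx1* from 991 to 3567 CPM. *Slc7a11* had 8 UMIs in the 280 cells and 12 in the 30 (log2 ratio of its levels 3.81), while *Srxn1* had 1 UMI in the last group. With clusters 1 and 3 counted alike and 1 CPM added, the *Slc7a11* log2 ratio was 0.05. Between the end groups *Slc7a11* went from 27.8 to 250 CPM in cluster 3. In cluster 1 it went from 7.09 CPM to no UMI in 6 cells. In Wt, only 6 cells had 3 or more *Hmox1* UMIs, with 6 *Gclm* UMIs between them, and 6 of the 9 genes were over 1.5-fold higher there (30.2% of measured genes were), among them the regulator *Nfe2l2* (log2 ratio 1.61, 0.14 to 2.78). The Wt log2 ratio of *Gclm* between the end groups was 5.28, and 1.25 as the mean over clusters 1 and 2 with 1 CPM added. Cluster 3, with 1 cell of 3 or more *Hmox1* UMIs, was left out of that mean. *Gclm* went from 16.0 to 1000 CPM in cluster 1, where 3 cells formed the last group. The 2 such cells of cluster 2 had no *Gclm* UMI.

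Cells of the same *Hmox1* group were then compared between the libraries. Among cells with 0 *Hmox1* UMIs, *Gclm* was at 12.9 CPM in Wt and 39.3 CPM in Gata3KO on 9 and 22 UMIs (log2 ratio 1.61, 0.43 to 2.91) and *Nfe2l2* at 163 and 282 CPM (0.79, 0.43 to 1.15). Among cells with 1 to 2, *Prdx1* was at 3171 CPM in Wt and 1104 CPM in Gata3KO (-1.52, -1.83 to -1.22) and *Srxn1* at 145 and 44.8 CPM on 11 and 6 UMIs (-1.69, -3.41 to -0.13). In that middle group *Gclm* was at 92.1 and 82.1 CPM, a log2 ratio of -0.17 with an interval from -1.66 to 1.44. *Hmox1* itself was not fully matched by these groups. Before thinning, 31.7% of Wt and 65.9% of Gata3KO class cells had an *Hmox1* UMI, so the group with 0 can hold *Hmox1*-positive cells. In the group with 3 or more, *Hmox1* was at 4083 CPM in Wt and 6250 CPM in Gata3KO (0.61, 0.18 to 1.07). The groups also differed in makeup: of the cells with 0 *Hmox1* UMIs, 212 of 349 in Wt and 31 of 280 in Gata3KO were of cluster 2. Within single clusters the *Gclm* intervals of these cells overlapped, at 16.0 CPM (3.29 to 46.6) in Wt and 28.4 CPM (12.2 to 55.9) in Gata3KO for cluster 1 and at 23.3 CPM (2.82 to 84.0) and 60.2 CPM (32.0 to 102.9) for cluster 3.

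**Figure D5:**
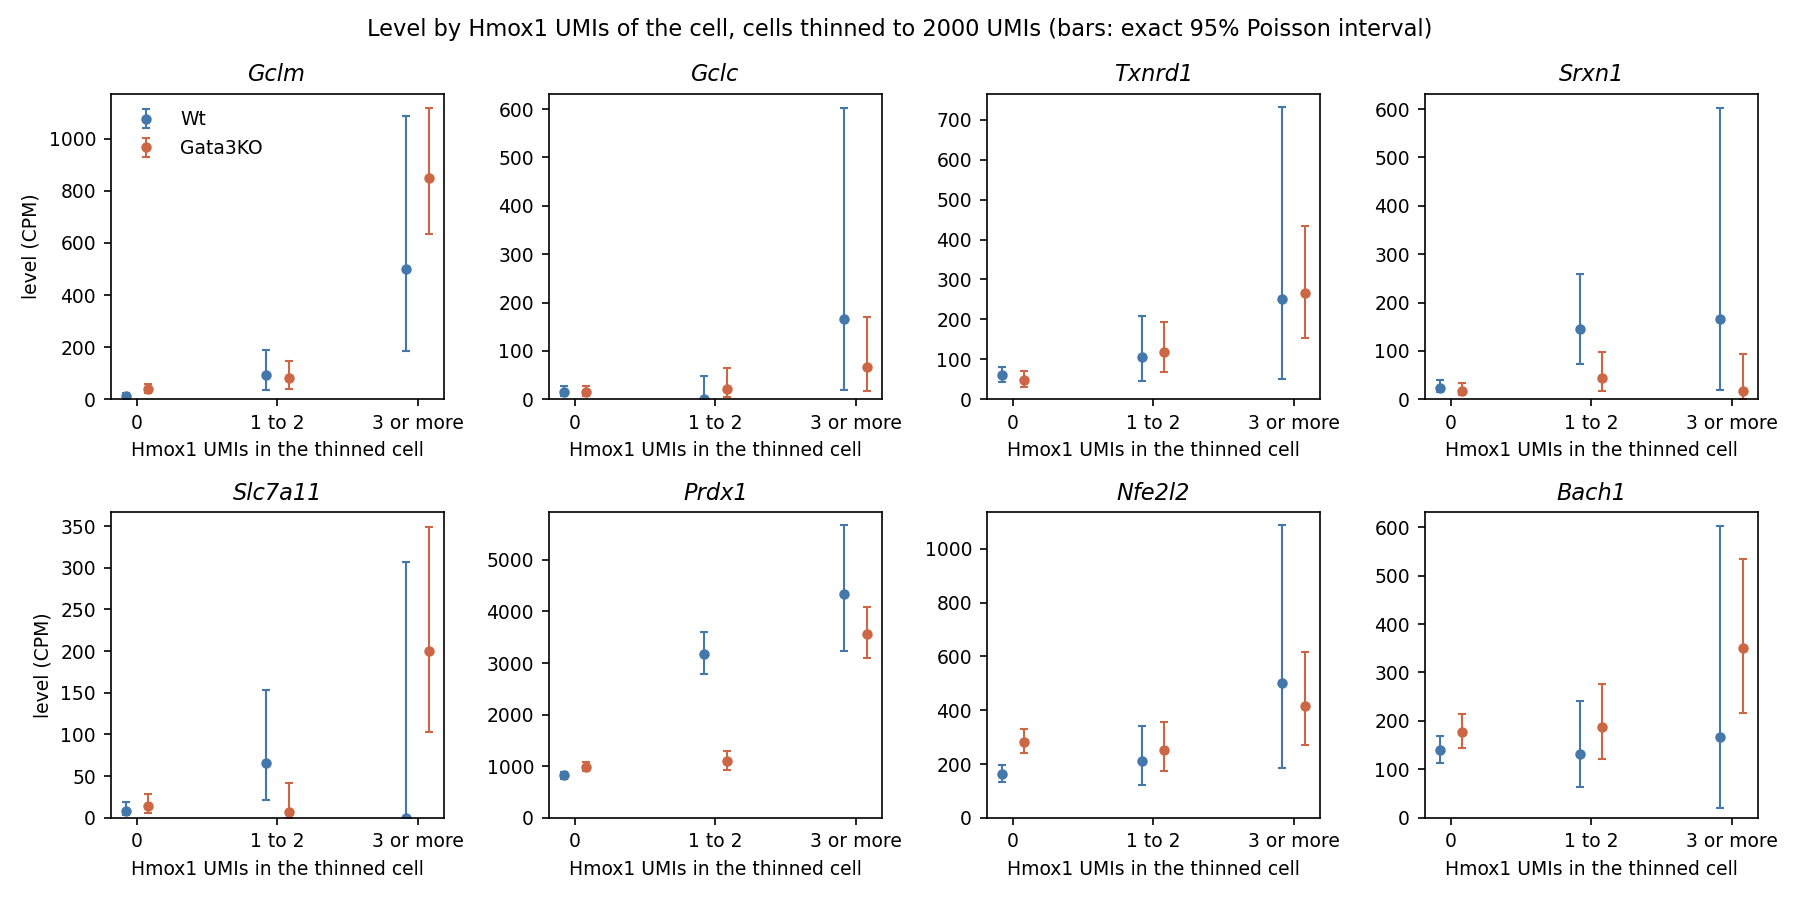
Level in CPM of 8 of the genes (vertical axes start at 0 and differ per gene) in cells with 0, 1 to 2 or 3 or more *Hmox1* UMIs after thinning to 2000 UMIs, Wt in blue and Gata3KO in red, with exact 95% Poisson intervals. *Gclm* in Gata3KO goes from 39.3 to 850 CPM, and *Prdx1* in Wt already stands at 3171 CPM at 1 to 2 *Hmox1* UMIs.

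As rank correlations over single thinned cells, which share a library and have few UMIs of most of these genes, the values were small. Spearman's rho with *Hmox1* was 0.37 for *Gclm* in Gata3KO (377 cells), above all 2323 genes ranked, and 0.20 in Wt (393 cells). It was 0.21 and 0.23 for *Prdx1*, 0.22 and 0.11 for *Txnrd1*, and 0.05 and 0.13 for *Nfe2l2*, against a median close to 0 over all genes. For *Gclc* it was 0.11 and -0.006, for *Srxn1* 0.08 and 0.20, for *Slc7a11* 0.09 and 0.15, and for *Bach1* 0.08 and 0.008. In Gata3KO the targets *Srxn1* and *Slc7a11* thus lay close to the regulator *Bach1*. The Wt values depended on the random draw of the thinning: over 3 other draws the median of the 9 genes fell from 0.14 to between 0.03 and 0.07. That 0.14 is the rho of *Nqo1*, which had a UMI in 0.25% of thinned Wt cells and in none of Gata3KO. The genes most like *Hmox1* by the mean rho of both libraries, among those with a UMI in at least 10% of thinned cells of each, were the ferritin genes *Fth1* (0.28) and *Ftl1* (0.26), *Prdx1* (0.22), *Cd36* (0.21), *Arl8a* (0.20), *Lipa* (0.19), *Cxcl2* (0.19) and *Slc48a1* (0.19). *Gclm* could not enter this list, with a UMI in 3.82% of thinned Wt cells.

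Other genes around the pathway were read in the same class, from lists of its branches, against the same 5.28% higher and 8% lower. Of 10 further regulators of Nrf2, 6 were measured; none was over 1.5-fold higher and 1 was lower, *Keap1*, the adaptor that marks Nrf2 for destruction, at 75.5 CPM in Wt and 41.7 CPM in Gata3KO (log2 ratio -0.86). *Sqstm1*, which sequesters Keap1, had a log2 ratio of 0.34, as did the ubiquitin ligase scaffold *Cul3*, and *Nfe2l1* had -0.34. Inside cluster 1 none of the 6 measured regulators passed 1.5-fold in either direction (3.85% of measured genes were higher, 5.72% lower). In cluster 2, 1 of 7 was higher and 3 were lower (13.3% and 14.6%). In cluster 3, 1 of 8 was higher and 1 was lower (12.7% and 10.8%). The part of cluster makeup in the class values of these lists was not tested. Of 18 glutathione genes 10 were measured and 2 were over 1.5-fold higher, glutathione reductase *Gsr* (25.5 and 53.9 CPM, 1.08) and the transferase *Gstm1* (63.3 and 98.9 CPM, 0.64). None was lower past that limit, with *Glrx* lowest at -0.45 and *Gpx1* next at 0.09.

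Of 13 further thioredoxin and peroxiredoxin genes 10 were measured, with 1 higher, the mitochondrial peroxiredoxin *Prdx3* (32.8 and 54.6 CPM, 0.74), and 1 lower, the thioredoxin inhibitor *Txnip* (215 and 115 CPM, -0.90). Of 8 genes of NADPH supply 6 were measured and 1 was higher, *Idh1* (0.63), while the pentose phosphate entry enzyme *G6pdx* (0.01) and *Tkt* (-0.02) were close to equal. Of 9 superoxide and peroxide genes 8 were measured and 1 was higher, catalase *Cat* (45.0 and 71.2 CPM, 0.66). The oxidase subunit *Cybb* was at 810 and 545 CPM (-0.57), just short of the limit.

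The branch with the most members past the limit in the class was haem and iron handling, with 4 of 8 measured genes over 1.5-fold higher and none lower. These were *Hmox1*, the iron exporter *Slc40a1* (21.0 and 68.0 CPM, 1.69), the haem transporter *Slc48a1* (69.2 and 134 CPM, 0.95) and the ferritin light chain *Ftl1* (9650 and 17020 CPM, 0.82). The constitutive oxygenase *Hmox2* was at 160 and 130 CPM (-0.30). Inside single clusters, 1 of 8 haem and iron genes was higher in cluster 1 (3.85% of measured genes were) and 3 of 8 in cluster 3 (12.7% were). In cluster 2 none of the 7 measured was (13.3% were), and all 7 had log2 ratios below 0. None was over 1.5-fold lower in these clusters. *Hmox1* was high in the Gata3KO library in earlier results of these data, so its presence in this list is not independent of the choice of genes. Of 16 other Nrf2 targets 8 were measured and 1 was higher, the scavenger receptor *Cd36* (172 and 299 CPM, 0.80). Of 16 genes of the Atf4 amino acid response, which also reaches *Slc7a11*, 5 were measured, with 1 higher, *Atf3* (268 and 414 CPM, 0.63), and 1 lower, *Mthfd2* (26.0 and 9.87 CPM, -1.40).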

How the data were processed

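The deposited tables hold UMI counts per gene and cell barcode for 2 libraries, unnormalized whole numbers as the authors left them. The tools named in the submitters' processing notes are Cell Ranger (3.0.1), Seurat (3.0.2) and, as language, R (3.6.1), with the build mm10. The sources used here do not give their settings or say whether strand was used in counting. *Gclm*, *Txnrd1*, *Slc7a11* and *Nfe2l2* overlap other annotated genes (GENCODE vM21), with which reads could be shared.

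Cells with at least 500 UMIs, 200 genes and at most 10% mitochondrial UMIs were kept (30.1% of Wt and 18.9% of Gata3KO barcodes). Both libraries were clustered together without integration (scanpy 1.11.5, 2000 variable genes, 30 principal components, 15 neighbours weighted by shared neighbours with scikit-learn 1.9.0, leidenalg 0.10.2 at resolution 0.6, igraph 0.11.9), with 99 pathway genes left out. Clusters were named from marker lists, and unnamed below a score of 0.15. Scrublet called 1 Wt and 4 Gata3KO cells as doublets, which were left in. The Wt share, 0.101%, and the Gata3KO share, 0.615%, are low, so undetected doublets remain possible.

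UMIs were summed per library and class and scaled to CPM. The 95% intervals are exact: conditional binomial for ratios, Poisson for levels and Clopper-Pearson for shares (Python 3.11.15 with pandas 2.3.3, numpy 2.4.6, scipy 1.17.1 and matplotlib 3.10.9). UMIs are molecules, and these intervals cover counting error only. A gene was measured at 20 CPM in at least 1 library, called past 1.5-fold, and compared over the 13289 genes of both tables. Counts out of 9 take every gene of the list, also those below 20 CPM, while the shares beside them are over measured genes only. The calculations were tested on simulated data. The genes and lists were chosen with earlier results of these data known. The named genes are the 9, *Hmox1*, *Gata3*, up to the 2 highest and 2 lowest measured members of each list, the 8 genes most like *Hmox1*, and cluster leaders. Alternatives covered cell filters, clustering, scaling, weighting, thinning and class membership.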

Additional observations from a re-analysis of the deposited data

Results flagged for a closer look

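*Srxn1* differed between the libraries in opposite directions in different cell states, and so did *Prdx1*; each value below had a counting interval on 1 side of 0, and the difference between the states was not tested. *Srxn1* was lower in Gata3KO in cluster 3 (log2 ratio -1.29) and higher in cluster 4 (0.93, 18 UMIs in Wt and 41 in Gata3KO) and in cluster 0 (2.34), where all 9 Gata3KO UMIs came from 1 cell. *Prdx1* was lower in Gata3KO in cluster 1 (-0.28), cluster 2 (-0.77) and cluster 3 (-0.27) and higher in cluster 4 (0.46), where it stood at 900.1 CPM in Wt and 1238 CPM in Gata3KO. Cluster 4 mixes cycling cells with *Sparc*-positive cells, and its macrophage markers differ between the libraries as given above.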

How the results depend on the processing

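No paired analysis was possible because each genotype has 1 library. Over 15 alternatives the class log2 ratio of *Gclm* ranged from 1.01 to 1.96 and stayed above 0, and that of *Srxn1* was below 0 in 14 of 15. The count of genes over 1.5-fold higher, 4, became 2 under a stricter cell filter (1000 UMIs, 5% mitochondrial), at Leiden resolution 1.2, with median-of-ratios scaling, or without the cells with the most UMIs; *Slc7a11* and *Nfe2l2* lie near that limit. With cluster shares held equal it became 1, the median became -0.44 and *Slc7a11* turned to -1.09. That *Slc7a11* value includes cluster 2, with no *Slc7a11* UMI in its 38 Gata3KO cells. In cluster 1 the count became 0 when the pathway genes were allowed in the clustering.

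The rank correlations are limited by depth. The Wt median, 0.14, was 0.0331 under the stricter cell filter and 0.0300 in another draw of the thinning. The Gata3KO median, 0.10 with *Nqo1* undetected after thinning, was 0.309 unthinned. Single Wt correlations changed sign. *Slc7a11* became -0.0205 over every barcode, -0.0563 with pathway genes in the clustering, -0.00184 at resolution 1.2, -0.0372 thinned to 1000 UMIs, and -0.0169 and -0.00979 in other draws. *Txnrd1* became -0.0514 under the stricter cell filter. *Nqo1* had a UMI in 0.25% of thinned Wt cells. Its value became -0.0197 with pathway genes in the clustering, -0.0140 thinned to 1000 UMIs, and -0.0186 and -0.0181 in other draws. *Nfe2l2* became -0.0184 with pathway genes in the clustering, -0.00734 at resolution 1.2, and -0.0240 and -0.0600 in other draws, and *Srxn1* became -0.00486 and -0.0384 in other draws. *Gclc* ranged from -0.0477 to 0.190 over the alternatives and *Bach1* from -0.120 to 0.0325. Inside cluster 3 of Wt, on 6 cells, the ratios of *Hmox1*-rich to other cells turned to -0.0436 for *Gclc* and -0.236 for *Srxn1*. The cause of these changes was not tested.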

Other observations

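The barcodes over the mitochondrial limit, 2300 in Wt and 2784 in Gata3KO, were left out of the clusters, and the genes differed there in another order than in the kept cells. *Slc7a11* stood at 8.34 CPM in Wt and 21.8 CPM in Gata3KO (log2 ratio 1.39, 0.96 to 1.83), *Nfe2l2* at 140 and 271 CPM (0.96), *Bach1* at 99.99 and 165 CPM (0.73), and *Txnrd1* at 39.6 and 63.0 CPM (0.67). *Gclm* was at 18.8 and 32.2 CPM (0.77), a smaller ratio than in the kept monocytes and macrophages. *Prdx1* was at 306 and 256 CPM (-0.25). The makeup of these barcodes was not resolved, and they may include damaged cells.

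In the mature dendritic cell-like cluster 6, *Slc7a11* was detected without *Hmox1*. It had 19 UMIs in 71 Wt cells (37.2 CPM, 22.4 to 58.1) and 6 UMIs in 10 Gata3KO cells (75.1 CPM, 27.5 to 163), while *Hmox1* had 0 UMIs in both. *Gclm* in these cells had 7 and 3 UMIs.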
